A study of Mus musculus with 6 samples.

Results

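The genes described here are 34 genes of the smooth muscle contractile apparatus and its cytoskeleton, from the myosin, actin and tropomyosin of the filaments to the proteins that anchor them in the cell membrane. They were taken by symbol from 27815 genes measured in the mouse aorta, and all 34 were found and passed the filter on low values that left 14074 genes for testing. The libraries came from C57BL/6 aortas, with 2 libraries in each of 3 groups, made from polyadenylated RNA. In the ApoE group the mice lacked apolipoprotein E (ApoE-/-), were fed chow to 16 months and had calcified plaques. In the CKD group kidney tissue was removed in stages from 8 weeks (the poles of the left kidney, then after 1 week the right kidney), after which the mice had a diet with 2% phosphate and drinking water with 0.45% NaCl for 4 weeks. The age label of the CKD libraries also reads 16 months, which does not match that schedule, so their age is uncertain. The Ctrl group was wild type with an age label of 2 months. Loss of ApoE and age differ together between ApoE and Ctrl and cannot be told apart. Nor can kidney surgery, phosphate, salt and possibly age in CKD against Ctrl. In ApoE against CKD the loss of ApoE is joined with the absence of that surgery and diet, and possibly with age. These cannot be told apart either. Nothing says whether the libraries of a group came from separate mice or from pools, so SDs and p-values describe how far these libraries lie apart, and that spread may be technical.

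A smooth muscle cell contracts when myosin II filaments pull on actin filaments. Calcium and calmodulin switch on a kinase that phosphorylates the regulatory light chain of myosin, and a phosphatase with a myosin-targeting subunit removes the phosphate. The actin filaments end in dense bodies in the cytoplasm and in adhesion plaques at the membrane, where integrins link them to the matrix, and caveolae lie between the plaques. In the wall of the aorta these genes are highly expressed in the medial smooth muscle cells, and many of them are known as targets of serum response factor and myocardin, which act through a short DNA element named the CArG box.

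Values are FPKM, which count reads per exon length and per depth of library, so levels can be set side by side between genes. The libraries held 14.44 to 16.64 M reads on the scale recovered from the values, and 1 read in 2 kb of exon was worth 0.0300 to 0.0346 FPKM. Apoe, the deleted gene, stood at 13.2 and 11.4 FPKM in the ApoE libraries, 1410.0 and 1447 FPKM in the CKD libraries and 756 and 627 FPKM in the Ctrl libraries. Fewer smooth muscle cells and less of these RNAs per cell cannot be told apart in whole tissue. Changes are given as log2 fold changes of FPKM + 1, each with the standard error (SE) from limma. A gene was called at a Benjamini-Hochberg adjusted p below 0.05 over all 14074 genes. The comparisons share libraries (Ctrl is in both comparisons with Ctrl, and ApoE and CKD recur), so their values are given side by side and are not independent of one another.

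The 34 genes were lowest in the ApoE aortas. Of them, 32 stood in the order ApoE below CKD below Ctrl with no overlap between the libraries of any pair of groups. The share of all genes in that order was not counted. It can be at most 35.1%, the share of all genes tested with both CKD libraries below both Ctrl libraries. Their median level was 24.3 and 18.9 FPKM in the ApoE libraries, 98.7 and 139 FPKM in the CKD libraries and 245 and 214 FPKM in the Ctrl libraries. Summed, they made up 0.686% and 0.578% of all FPKM in the ApoE libraries, 2.36% and 3.98% in the CKD libraries and 6.26% and 5.48% in the Ctrl libraries. The 2 genes outside that order were Actg2 and Tln1. On the log2 scale the CKD level lay nearer to Ctrl than to ApoE for 30 genes, and nearer to ApoE for Des, Tln1, Pgm5 and Cavin1. Among the 100 most abundant genes of a library stood 1 of the 34 genes in each ApoE library, 7 and 8 in the CKD libraries and 11 and 10 in the Ctrl libraries.

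**Figure D1:**
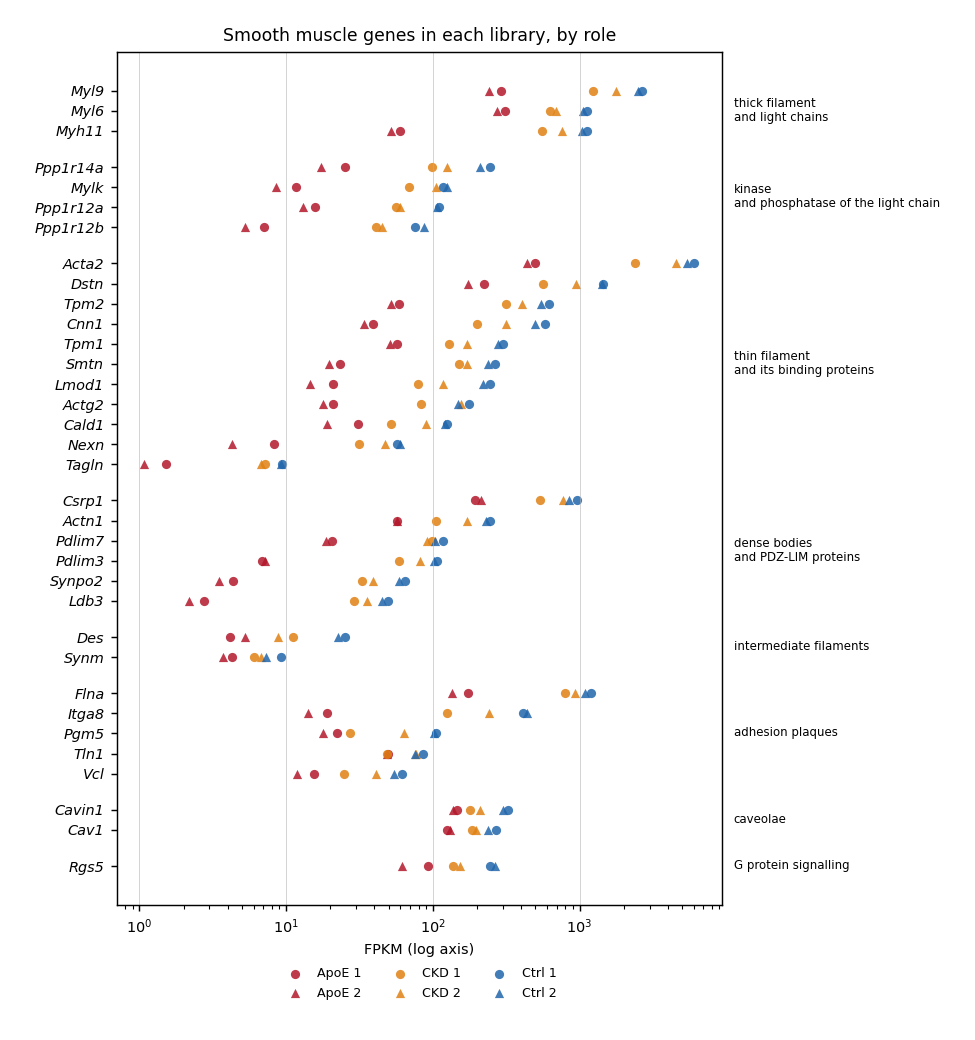
FPKM of each of the 34 genes in each library on a log axis, grouped by role; circles are replicate 1 and triangles replicate 2 of the ApoE (red), CKD (orange) and Ctrl (blue) groups. The ApoE libraries lie to the left of both other groups for 33 of the 34 genes, and Tln1 is the exception.

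In ApoE against Ctrl, 33 of the 34 genes fell and none rose, where 24.3% of all genes tested were called lower. The median log2 fold change was -2.87, beside -0.066 over all genes tested. The changes ran from -4.62 for Itga8 to -0.71 for Tln1, so the ApoE level of the 34 genes lay between 3.87% and 60.4% of the Ctrl level. All 34 genes had both ApoE libraries below both Ctrl libraries, as did 43.0% of all genes tested. In ApoE against CKD, 31 genes fell and none rose, where 21.2% of all genes were called lower, and the median was -2.29 beside -0.038 over all genes. Both ApoE libraries lay below both CKD libraries for 33 of the 34 genes and for 38.0% of all genes.

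In CKD against Ctrl, the values were lower by a median log2 fold change of -0.76, beside -0.031 over all genes tested, and ran from -1.29 for Itga8 to -0.22 for Pdlim7. Only 5 genes passed the test as lower, namely Des, Ppp1r12a, Ppp1r12b, Synpo2 and Tpm1, and none as higher, where 3.21% of all genes were called lower. At an unadjusted p below 0.05, 25 of the 34 genes were lower, against 16.9% of all genes, and both CKD libraries lay below both Ctrl libraries for 32 genes, against 35.1% of all genes. Almost no gene of all those tested was called lower without CKD 1, or without any one of the ApoE or Ctrl libraries. The 5 calls among the 34 genes were lost in each of those fits. Without CKD 2, 24 were called lower, where 8.76% of the 13863 genes tested in that fit were called lower. The CKD libraries differed from each other more than those of the other groups. The level was lower in CKD 1 than in CKD 2 for 31 of the 34 genes, and the median SD was 20.6% of the mean in CKD, 13.4% in ApoE and 6.7% in Ctrl.

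**Figure D2:**
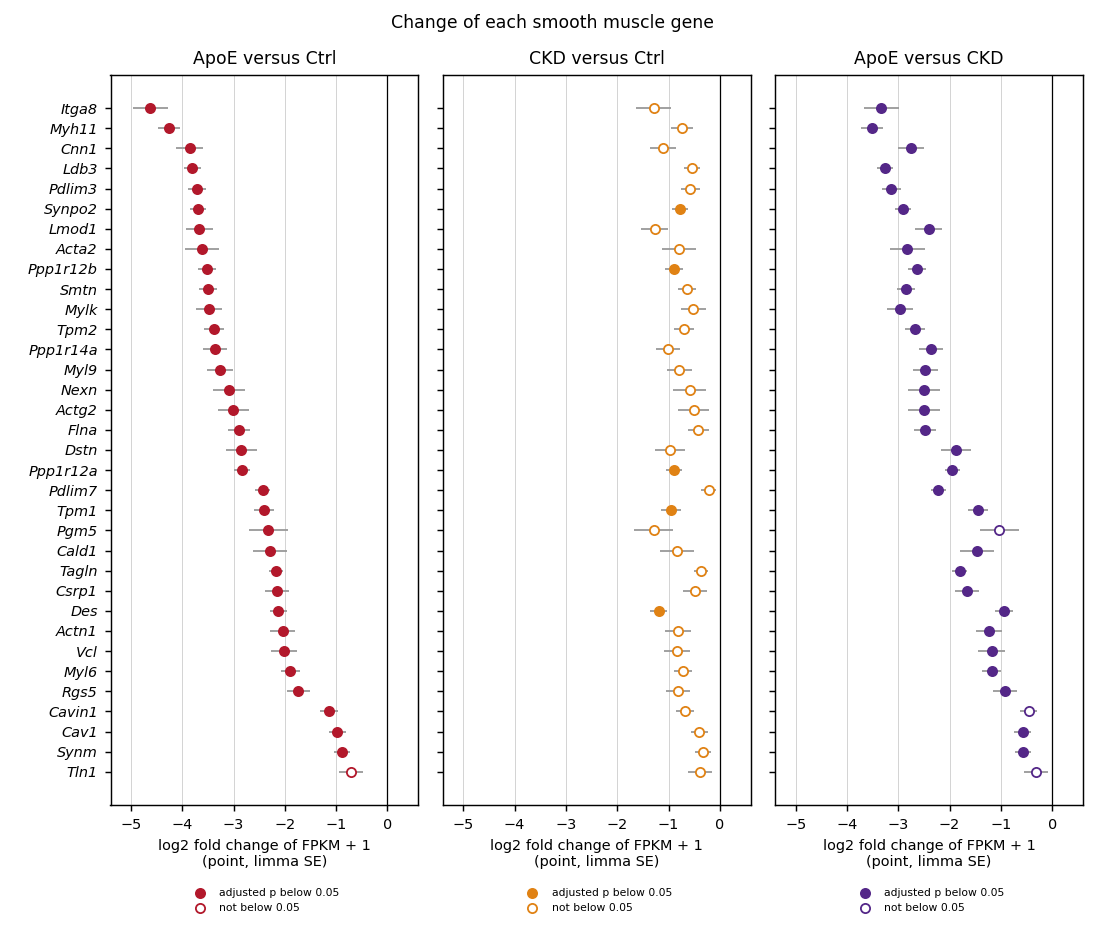
Log2 fold change of FPKM + 1 for each gene, with its SE from limma, in ApoE versus Ctrl, CKD versus Ctrl and ApoE versus CKD, ordered by ApoE versus Ctrl; filled points have an adjusted p below 0.05. The ApoE versus Ctrl values run from -4.62 to -0.71, while the CKD versus Ctrl values stay between -1.29 and -0.22.

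Because 33 of the 34 genes fell in the same comparison, their RefSeq promoters were searched for the CArG box (a C pair, 6 letters A or T, and a G pair; both strands). Windows of 300 bases, from 250 before to 50 after a start on GRCm38.p6, were found for 30 of the 34 genes, and those of Actg2, Myh11, Nexn and Tagln were not analysed here. A CArG box stood in 4 of the 30 (13.3%), namely Ldb3, Myl6, Myl9 and Vcl, and in 1.81% of all genes with a window. Allowing 1 of the 6 inner letters to differ, a match stood in 8 of the 30 (26.7%) and in 11.29% of all genes, and Acta2, Dstn, Pdlim3 and Synm were added. The 250 bases before the start are shown for 5 genes, because they place these letters in genes that are described next, with the matches in capitals. Acta2 (chr19:34255374-34255623, minus strand) has 2 matches with 1 letter off, which begin 84 and 34 bases before the start. Myl9 (chr2:156775214-156775463, plus strand) has a CArG box 161 bases before the start and a match with 1 letter off at 99 bases. In Myl6 (chr10:128493010-128493259, minus strand), Ldb3 (chr14:34588608-34588857, minus strand) and Vcl (chr14:20929148-20929397, plus strand) 1 CArG box begins 50, 109 and 227 bases before the start. Myl6 and Ldb3 each have another start with its own window. That window of Myl6 (chr10:128493837-128494136) holds no match, and in that of Ldb3 the same box begins 35 bases before the start.
Acta2: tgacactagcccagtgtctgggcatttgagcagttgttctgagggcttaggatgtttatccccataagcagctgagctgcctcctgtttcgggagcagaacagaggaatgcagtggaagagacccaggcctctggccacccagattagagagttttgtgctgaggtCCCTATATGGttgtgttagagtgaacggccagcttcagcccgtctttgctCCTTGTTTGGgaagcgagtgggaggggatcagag
Myl9: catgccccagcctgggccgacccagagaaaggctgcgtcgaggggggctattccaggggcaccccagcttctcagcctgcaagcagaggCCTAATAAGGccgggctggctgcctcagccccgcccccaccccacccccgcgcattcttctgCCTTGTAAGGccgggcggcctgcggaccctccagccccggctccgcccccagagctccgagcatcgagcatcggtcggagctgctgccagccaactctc
Myl6: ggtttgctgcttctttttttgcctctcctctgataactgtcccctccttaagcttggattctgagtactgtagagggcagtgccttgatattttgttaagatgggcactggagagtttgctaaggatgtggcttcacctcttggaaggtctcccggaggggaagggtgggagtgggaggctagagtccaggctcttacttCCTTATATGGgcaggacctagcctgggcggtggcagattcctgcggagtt
Ldb3: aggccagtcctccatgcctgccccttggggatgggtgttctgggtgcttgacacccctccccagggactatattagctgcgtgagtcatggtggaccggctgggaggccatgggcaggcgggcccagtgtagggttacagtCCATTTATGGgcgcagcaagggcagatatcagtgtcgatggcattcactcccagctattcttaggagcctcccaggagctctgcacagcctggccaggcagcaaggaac
Vcl: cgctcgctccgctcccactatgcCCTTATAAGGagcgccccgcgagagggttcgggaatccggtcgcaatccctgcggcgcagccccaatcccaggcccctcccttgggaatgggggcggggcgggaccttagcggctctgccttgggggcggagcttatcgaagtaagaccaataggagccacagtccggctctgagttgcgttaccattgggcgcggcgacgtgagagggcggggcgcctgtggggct
The matches are letters in a window and were not tested for binding. In ApoE against Ctrl these 5 genes changed by -3.62 (Acta2), -3.27 (Myl9), -1.90 (Myl6), -3.80 (Ldb3) and -2.01 (Vcl), beside -2.87 for the median of the 34 genes.

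The thick filament and its light chains showed large and unequal changes. Myh11, the smooth muscle myosin heavy chain (ENSMUSG00000018830; GRCm38 chromosome 16, 14194535 to 14291372), stood at 60.0 and 51.6 FPKM in the ApoE libraries, 554 and 755 FPKM in the CKD libraries and 1123 and 1039 FPKM in the Ctrl libraries. It fell in ApoE against Ctrl by a log2 change of -4.25 (SE 0.22, adjusted p = 0.0002). This was the second largest change of the 34 genes, and left 5.16% of the Ctrl mean. Myl9, the regulatory light chain that the kinase phosphorylates, stood at 292 and 242 FPKM in the ApoE libraries, 1243 and 1767 FPKM in the CKD libraries and 2651 and 2486 FPKM in the Ctrl libraries. It changed by -3.27 (SE 0.24, adjusted p = 0.000427). Myl6, the essential light chain, which non-muscle myosin also uses, stood at 309 and 272 FPKM in the ApoE libraries, 627 and 691 FPKM in the CKD libraries and 1116 and 1050.2 FPKM in the Ctrl libraries. It fell least of the 3, by -1.90 (SE 0.18, adjusted p = 0.000883), and 8.4% of its 50-base words also occur in other annotated genes, so that its reads may be split. Set against Ctrl, the CKD values of the 3 genes were -0.74 (Myh11), -0.79 (Myl9) and -0.72 (Myl6), and none was called (adjusted p = 0.0732 to 0.102). In ApoE against CKD all 3 fell, Myh11 by -3.52 (SE 0.22, adjusted p = 0.000564).

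The genes of the kinase and the phosphatase that set the phosphorylation of the light chain all fell in ApoE against Ctrl. Mylk, the myosin light chain kinase, stood at 11.7 and 8.51 FPKM in the ApoE libraries, 68.4 and 104 FPKM in the CKD libraries and 118 and 124 FPKM in the Ctrl libraries. Its ApoE libraries lay far below both other groups, while CKD 2 came close to Ctrl, and the change in ApoE against Ctrl was -3.48 (SE 0.25, adjusted p = 0.000404). Ppp1r12a, the myosin phosphatase targeting subunit, stood at 15.8 and 13.0 FPKM in the ApoE libraries, 56.2 and 59.8 FPKM in the CKD libraries and 110.2 and 106 FPKM in the Ctrl libraries. It fell in ApoE against Ctrl (-2.83 (SE 0.15, adjusted p = 0.000211)). It also fell in CKD against Ctrl, by -0.89 (SE 0.15, adjusted p = 0.0383), with the 2 CKD libraries close together. Ppp1r12b, another targeting subunit, stood at 7.10 and 5.26 FPKM in the ApoE libraries, 41.3 and 45.2 FPKM in the CKD libraries and 75.2 and 86.9 FPKM in the Ctrl libraries. Its falls were -3.52 (SE 0.17, adjusted p = 0.00019) in ApoE against Ctrl and -0.89 (SE 0.17, adjusted p = 0.0468) in CKD against Ctrl. Ppp1r14a, a phosphatase inhibitor that protein kinase C activates, stood at 25.2 and 17.4 FPKM in the ApoE libraries, 99.3 and 126 FPKM in the CKD libraries and 245 and 208 FPKM in the Ctrl libraries. It changed by -3.37 (SE 0.23, adjusted p = 0.000374) in ApoE against Ctrl. Its CKD libraries lay below both Ctrl libraries, with a value of -1.01 (SE 0.23, adjusted p = 0.0623) that did not pass.

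Among the actins and tropomyosins, Acta2 was the most abundant of the 34 genes in all 6 libraries. Acta2, smooth muscle alpha-actin (ENSMUSG00000035783; GRCm38 chromosome 19, 34241090 to 34255590), stood at 494 and 437 FPKM in the ApoE libraries, 2393 and 4527 FPKM in the CKD libraries and 6034 and 5402 FPKM in the Ctrl libraries. The ApoE libraries lay at about the same low level, and CKD 1 stood well below CKD 2 and both Ctrl libraries. Acta2 fell in ApoE against Ctrl (-3.62 (SE 0.34, adjusted p = 0.000823)), to 8.14% of the Ctrl mean. Its rank among all genes was 65 and 78 in the ApoE libraries, 13 and 5 in the CKD libraries and 2 and 4 in the Ctrl libraries. The CKD against Ctrl value did not pass the test (-0.79 (SE 0.34, adjusted p = 0.179)), and ApoE against CKD was -2.82 (SE 0.34, adjusted p = 0.00251). Actg2, enteric gamma-actin, stood at 21.0 and 17.8 FPKM in the ApoE libraries, 83.4 and 155 FPKM in the CKD libraries and 177 and 149 FPKM in the Ctrl libraries, with CKD 2 between the 2 Ctrl libraries. Actg2 fell in ApoE against Ctrl (-3.01 (SE 0.31, adjusted p = 0.00113)). Tpm2, beta-tropomyosin, stood at 59.0 and 51.7 FPKM in the ApoE libraries, 316 and 405 FPKM in the CKD libraries and 621 and 548 FPKM in the Ctrl libraries. Tpm1, alpha-tropomyosin, stood at 56.6 and 50.8 FPKM in the ApoE libraries, 129 and 170.0 FPKM in the CKD libraries and 299 and 276 FPKM in the Ctrl libraries. They fell in ApoE against Ctrl by -3.38 (SE 0.20, adjusted p = 0.000256) (Tpm2) and -2.40 (SE 0.19, adjusted p = 0.000515) (Tpm1), and Tpm1 fell in CKD against Ctrl by -0.95 (SE 0.19, adjusted p = 0.0494).

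The genes of proteins that bind the thin filament fell in ApoE against Ctrl without exception. Cnn1, calponin, which inhibits the myosin ATPase at the thin filament, stood at 39.2 and 33.7 FPKM in the ApoE libraries, 201 and 315 FPKM in the CKD libraries and 585 and 500.4 FPKM in the Ctrl libraries. Its change in ApoE against Ctrl was -3.86 (SE 0.26, adjusted p = 0.000337). Smtn, smoothelin, a marker of contractile smooth muscle, stood at 23.4 and 19.5 FPKM in the ApoE libraries, 151 and 171 FPKM in the CKD libraries and 267 and 237 FPKM in the Ctrl libraries. Its change was -3.50 (SE 0.17, adjusted p = 0.00019). Lmod1, leiomodin, which nucleates actin filaments, stood at 20.8 and 14.5 FPKM in the ApoE libraries, 78.7 and 117 FPKM in the CKD libraries and 247 and 219 FPKM in the Ctrl libraries. It fell by -3.67 (SE 0.26, adjusted p = 0.000408) in ApoE against Ctrl, and its CKD against Ctrl value of -1.26 (SE 0.26, adjusted p = 0.0531) lay just outside the threshold. Cald1, caldesmon, and Nexn, nexilin, an actin-binding protein, had ApoE libraries that differed most among this set. Cald1 stood at 31.0 and 19.1 FPKM in the ApoE libraries, 52.0 and 90.4 FPKM in the CKD libraries and 125 and 122 FPKM in the Ctrl libraries. Nexn stood at 8.25 and 4.27 FPKM in the ApoE libraries, 31.2 and 47.4 FPKM in the CKD libraries and 57.1 and 59.6 FPKM in the Ctrl libraries. The changes in ApoE against Ctrl were -2.29 (SE 0.33, adjusted p = 0.00353) for Cald1 and -3.09 (SE 0.31, adjusted p = 0.00112) for Nexn. Dstn, destrin, which severs and depolymerizes actin filaments, stood at 225 and 175 FPKM in the ApoE libraries, 563 and 948 FPKM in the CKD libraries and 1447 and 1422 FPKM in the Ctrl libraries. It fell by -2.85 (SE 0.29, adjusted p = 0.00116).

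Tagln, transgelin (SM22), was the least abundant of the 34 genes in the ApoE libraries, at 1.51 and 1.08 FPKM in the ApoE libraries, 7.21 and 6.79 FPKM in the CKD libraries and 9.37 and 9.24 FPKM in the Ctrl libraries. These values rest on 48 and 32 reads in the ApoE libraries, 212 and 195 in the CKD libraries and 310 and 278 in the Ctrl libraries. The annotated antisense gene Gm48529 overlaps 1241 of its 1988 exon bases (62.4%), and the library kit did not mark strand. How the authors counted reads in the overlap is not given in the sources used here. The level and the change of Tagln (-2.17 (SE 0.14, adjusted p = 0.000301) in ApoE against Ctrl) are therefore uncertain. In 12 of the 34 genes an annotated gene overlaps the exons, and in 8 of them it covers over 5% of the exon bases (Tagln, Smtn, Nexn, Actn1, Des, Synm, Vcl and Itga8).

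Dense bodies anchor the filaments through alpha-actinin and the PDZ-LIM proteins. Actn1, alpha-actinin, stood at 56.7 and 56.6 FPKM in the ApoE libraries, 106 and 171 FPKM in the CKD libraries and 244 and 230.1 FPKM in the Ctrl libraries. The 2 ApoE libraries lay close together, and the change in ApoE against Ctrl was -2.05 (SE 0.25, adjusted p = 0.00198). Ldb3, a PDZ-LIM protein of striated muscle Z discs, stood at 2.74 and 2.18 FPKM in the ApoE libraries, 28.8 and 35.4 FPKM in the CKD libraries and 49.6 and 44.8 FPKM in the Ctrl libraries. It fell by -3.80 (SE 0.16, adjusted p = 0.000172), to 5.22% of the Ctrl mean. Pdlim3, another PDZ-LIM protein, which binds alpha-actinin, stood at 6.83 and 7.23 FPKM in the ApoE libraries, 59.3 and 81.8 FPKM in the CKD libraries and 107 and 102 FPKM in the Ctrl libraries. The change in ApoE against Ctrl was -3.71 (SE 0.18, adjusted p = 0.00019). Synpo2, synaptopodin 2, an actin-binding protein, stood at 4.33 and 3.50 FPKM in the ApoE libraries, 32.7 and 38.9 FPKM in the CKD libraries and 65.1 and 59.3 FPKM in the Ctrl libraries. It fell by -3.69 (SE 0.16, adjusted p = 0.000172) in ApoE against Ctrl and by -0.78 (SE 0.16, adjusted p = 0.0483) in CKD against Ctrl. Pdlim7, a further PDZ-LIM protein, stood at 20.5 and 18.6 FPKM in the ApoE libraries, 98.1 and 91.1 FPKM in the CKD libraries and 118 and 103 FPKM in the Ctrl libraries. It fell in ApoE against Ctrl (-2.44 (SE 0.15, adjusted p = 0.000285)), while its CKD against Ctrl value of -0.22 (SE 0.15, adjusted p = 0.371) was the smallest of the 34 genes. Csrp1, a cysteine-rich LIM protein, stood at 193 and 213 FPKM in the ApoE libraries, 537 and 772 FPKM in the CKD libraries and 958 and 850.2 FPKM in the Ctrl libraries. It fell by -2.15 (SE 0.23, adjusted p = 0.00131) in ApoE against Ctrl.

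The intermediate filament genes were among the least abundant. Des, desmin, stood at 4.16 and 5.29 FPKM in the ApoE libraries, 11.2 and 8.80 FPKM in the CKD libraries and 25.2 and 22.6 FPKM in the Ctrl libraries. Des fell in ApoE against Ctrl (-2.13 (SE 0.17, adjusted p = 0.000495)) and in CKD against Ctrl (-1.19 (SE 0.17, adjusted p = 0.0288)), and it had the smallest adjusted p of the 34 genes in CKD. Synm, synemin, which links intermediate filaments to dense bodies, stood at 4.30 and 3.70 FPKM in the ApoE libraries, 6.06 and 6.76 FPKM in the CKD libraries and 9.30 and 7.29 FPKM in the Ctrl libraries. Its fall in ApoE against Ctrl was small (-0.89 (SE 0.16, adjusted p = 0.00669)), and without Ctrl 1 the adjusted p was 0.0521.

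The adhesion plaque held both ends of the range. Itga8, the alpha 8 integrin (ENSMUSG00000026768; GRCm38 chromosome 2, 12106632 to 12301922), stood at 18.9 and 14.1 FPKM in the ApoE libraries, 124 and 243 FPKM in the CKD libraries and 414 and 440.1 FPKM in the Ctrl libraries. It fell most of the 34 genes in ApoE against Ctrl (-4.62 (SE 0.34, adjusted p = 0.000414)), to a mean 25.8 times lower. The annotated antisense gene E030013I19Rik covers 372 of its 7368 exon bases. It stood at 5.06 and 3.30 FPKM in the ApoE libraries, 7.48 and 15.7 FPKM in the CKD libraries and 61.6 and 55.6 FPKM in the Ctrl libraries. Tln1, talin, which couples integrins to actin, stood at 49.2 and 48.8 FPKM in the ApoE libraries, 49.0 and 77.0 FPKM in the CKD libraries and 86.4 and 75.8 FPKM in the Ctrl libraries. ApoE 1 lay between the CKD libraries and ApoE 2 just below them. The change in ApoE against Ctrl just missed the threshold (-0.71 (SE 0.24, adjusted p = 0.053)), while in ApoE against CKD it was -0.32 (SE 0.24, adjusted p = 0.32). Under 3 other settings, without CKD 1 and without CKD 2 its adjusted p in ApoE against Ctrl was 0.00791 to 0.0487. Vcl, vinculin, which binds talin, stood at 15.4 and 11.9 FPKM in the ApoE libraries, 24.9 and 40.8 FPKM in the CKD libraries and 61.2 and 54.4 FPKM in the Ctrl libraries, and the antisense gene Ap3m1 covers 2090 of its 8191 exon bases. Vcl fell by -2.01 (SE 0.26, adjusted p = 0.00239) in ApoE against Ctrl. Flna, filamin A, an actin crosslinker, stood at 173 and 136 FPKM in the ApoE libraries, 791 and 928 FPKM in the CKD libraries and 1202 and 1092 FPKM in the Ctrl libraries. The change in ApoE against Ctrl was -2.90 (SE 0.21, adjusted p = 0.000396). Pgm5, aciculin, a plaque protein, stood at 22.1 and 17.8 FPKM in the ApoE libraries, 27.2 and 63.7 FPKM in the CKD libraries and 106 and 101 FPKM in the Ctrl libraries. It fell in ApoE against Ctrl (-2.32 (SE 0.38, adjusted p = 0.00562)), and in ApoE against CKD it did not pass (-1.03 (SE 0.38, adjusted p = 0.0783)), with CKD 1 close to the ApoE libraries.

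Caveolae and receptor signalling changed less. Cav1, caveolin 1, the coat protein of caveolae, stood at 124 and 131 FPKM in the ApoE libraries, 184 and 198 FPKM in the CKD libraries and 269.9 and 237 FPKM in the Ctrl libraries. It fell in ApoE against Ctrl by -0.98 (SE 0.16, adjusted p = 0.00566), with an adjusted p of 0.0695 without Ctrl 1. Cavin1, which stabilizes the coat, stood at 146 and 137 FPKM in the ApoE libraries, 179.7 and 211 FPKM in the CKD libraries and 323 and 302 FPKM in the Ctrl libraries. It fell by -1.14 (SE 0.17, adjusted p = 0.00382), while in ApoE against CKD it did not pass (-0.46 (SE 0.17, adjusted p = 0.0766)). Both genes are also expressed in endothelium and adipocytes. Rgs5, a regulator of G protein signalling that pericytes also express, stood at 92.8 and 61.7 FPKM in the ApoE libraries, 136 and 152 FPKM in the CKD libraries and 246 and 264 FPKM in the Ctrl libraries. It fell by -1.74 (SE 0.23, adjusted p = 0.00255). The summed pericyte markers were also lower in both ApoE libraries than in the CKD and Ctrl libraries.

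To set the genes against a common reference, each library's values were set against the median log2 level of the 34 genes in that library. In ApoE against Ctrl that level fell further than the median of the 34 changes (-2.87). Myl9 changed by -3.27 and still lay at 0.09 relative to it. A gene with no call can thus have fallen more than the median change. Relative to the median level, 2 genes were lower in ApoE against Ctrl, Itga8 (-1.27, adjusted p = 0.000178) and Myh11 (-0.90, adjusted p = 0.00499). A further 15 were higher than the median: Tln1 (2.64), Synm (2.47), Cav1 (2.38), Cavin1 (2.22), Rgs5 (1.62), Myl6 (1.46), Vcl, Actn1, Des, Csrp1, Tagln, Cald1, Pgm5, Tpm1 and Pdlim7. Most genes of the aorta did not fall with this set, so 98.4% of all genes were called higher than the median and 0.199% lower, and the adjustment adds little to these p-values. How many genes stood below the rest depended on the reference and the pseudocount. Against the summed FPKM of the 34 genes in place of their median, 7 were lower (Itga8, Myh11, Ldb3, Synpo2, Pdlim3, Cnn1 and Lmod1) and 13 higher. With a pseudocount of 0.1, 4 were lower (Itga8, Myh11, Ldb3 and Synpo2) and 14 higher. With a library left out 1 to 3 were lower. Itga8 was lower in each of these fits, while the call on Myh11 was lost without Ctrl 1 and without Ctrl 2. Between the 2 ends lay 17 genes with no call, among them Acta2 (-0.26), Cnn1 (-0.50), Tpm2 (-0.02) and Mylk (-0.12).

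In ApoE against CKD, 4 genes fell more than the median level (Myh11 -1.12, Itga8 -0.93, Ldb3 -0.86 and Pdlim3 -0.74) and 13 less. Of all genes, 0.291% were called lower than that level and 95.8% higher. Those below came to 7 against the summed FPKM (with 12 higher), to 6 with a pseudocount of 0.1, without CKD 1 and without CKD 2, and to 3 without ApoE 1, and Itga8, Myh11 and Ldb3 were among them each time. In CKD against Ctrl, Pdlim7 (0.74) and Synm (0.64) were called higher than the median level, where 70.9% of all genes were. These 2 calls came to 0, 1 or 6 with a library left out. Across the 34 genes, Spearman's rho between a gene's Ctrl level and its log2 change was -0.17 in ApoE against Ctrl and -0.16 in CKD against Ctrl, as a description over genes that share the same libraries.

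**Figure D3:**
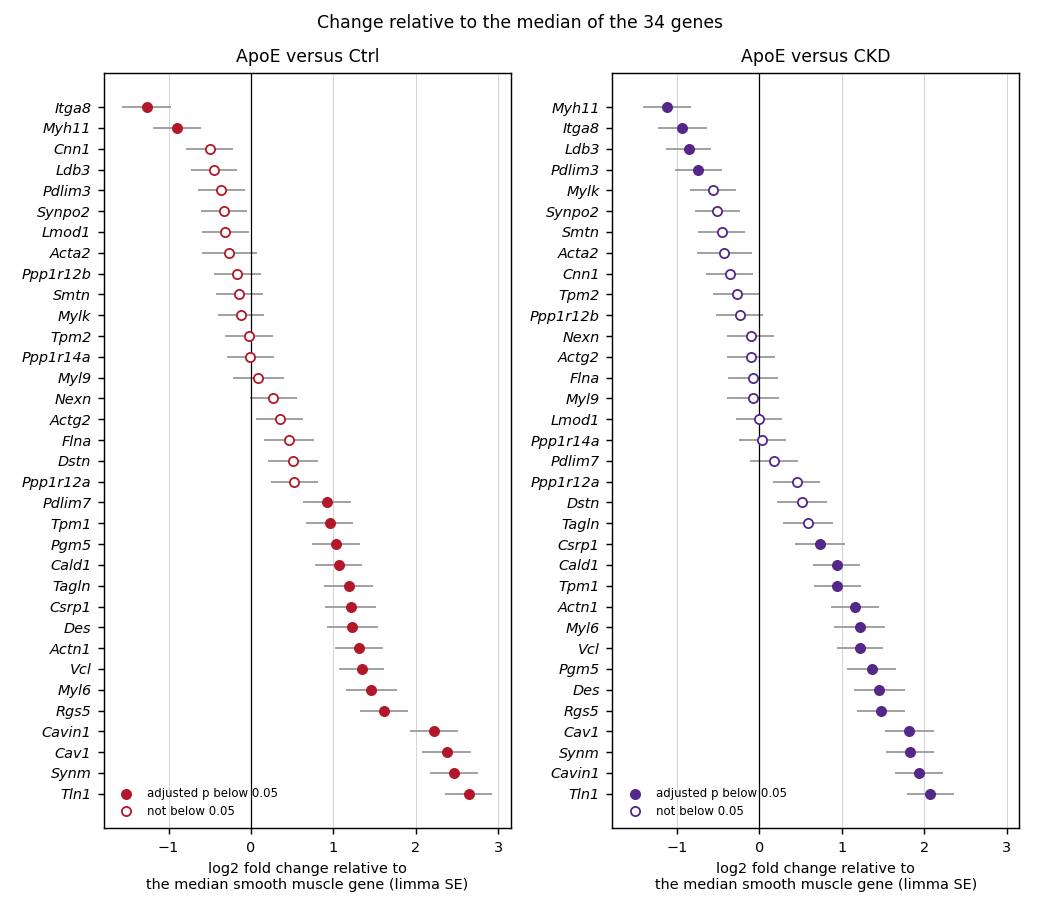
Log2 fold change of each gene relative to the median level of the 34 genes in the same library, with limma's standard error. ApoE versus Ctrl is on the left and ApoE versus CKD on the right, and filled points have an adjusted p below 0.05. Itga8 and Myh11 lie lowest in both panels and Tln1 highest.

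Each gene was then set beside the other members of its family, as its share of the family's FPKM, which does not depend on the scaling of the libraries. With 2 libraries per group an exact permutation test of a share cannot go below 0.333, so the shares are values with no test. Acta2 made up 25.0% and 22.7% in the ApoE libraries, 75.3% and 81.3% in the CKD libraries and 84.1% and 84.4% in the Ctrl libraries of the actins, where the cytoplasmic beta-actin Actb made up 51.2% and 51.9% in the ApoE libraries, 15.2% and 11.0% in the CKD libraries and 9.31% and 9.19% in the Ctrl libraries. Among the myosin heavy chains of smooth muscle and non-muscle cells, Myh11 took 45.5% and 41.7% in the ApoE libraries, 87.0% and 87.8% in the CKD libraries and 88.9% and 88.8% in the Ctrl libraries. The share of Myl9 among the regulatory light chains was 53.1% and 48.1% in the ApoE libraries, 85.1% and 87.2% in the CKD libraries and 92.0% and 93.1% in the Ctrl libraries.

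The tropomyosins and calponins also differed in their shares. Tpm2 made up 14.8% and 15.4% in the ApoE libraries, 52.7% and 51.4% in the CKD libraries and 58.1% and 56.5% in the Ctrl libraries of the tropomyosins, and Tpm4, which is abundant in non-muscle cells, made up 51.7% and 49.2% in the ApoE libraries, 19.7% and 21.7% in the CKD libraries and 11.0% and 11.9% in the Ctrl libraries. Cnn1 made up 23.7% and 25.5% in the ApoE libraries, 54.7% and 59.6% in the CKD libraries and 63.3% and 62.4% in the Ctrl libraries of the calponins, and Cnn2 made up 52.1% and 51.0% in the ApoE libraries, 24.1% and 19.3% in the CKD libraries and 14.5% and 14.1% in the Ctrl libraries. Among the phosphatase targeting subunits Ppp1r12c, which is not a smooth muscle marker, held 58.4% and 61.4% in the ApoE libraries. It held 51.2% and 44.8% in the CKD libraries and 30.8% and 29.0% in the Ctrl libraries. A larger share was not always a higher level. By limma, Ppp1r12c (-1.37, adjusted p = 0.00167) and Cnn2 (-0.68, adjusted p = 0.0345) themselves fell in ApoE against Ctrl. Tpm4 stood higher in the ApoE libraries (206.5 and 165.4 FPKM) than in the Ctrl libraries (118.0 and 115.6 FPKM). By limma it was not called (0.66, adjusted p = 0.0626). In contrast, Tln1 stayed between 97.0% and 98.6% of the talins in all 6 libraries, Cav1 between 75.0% and 78.5% of the caveolins, and Flna made up 86.3% and 84.9% in the ApoE libraries, 94.6% and 94.3% in the CKD libraries and 94.5% and 95.0% in the Ctrl libraries of the filamins.

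**Figure D4:**
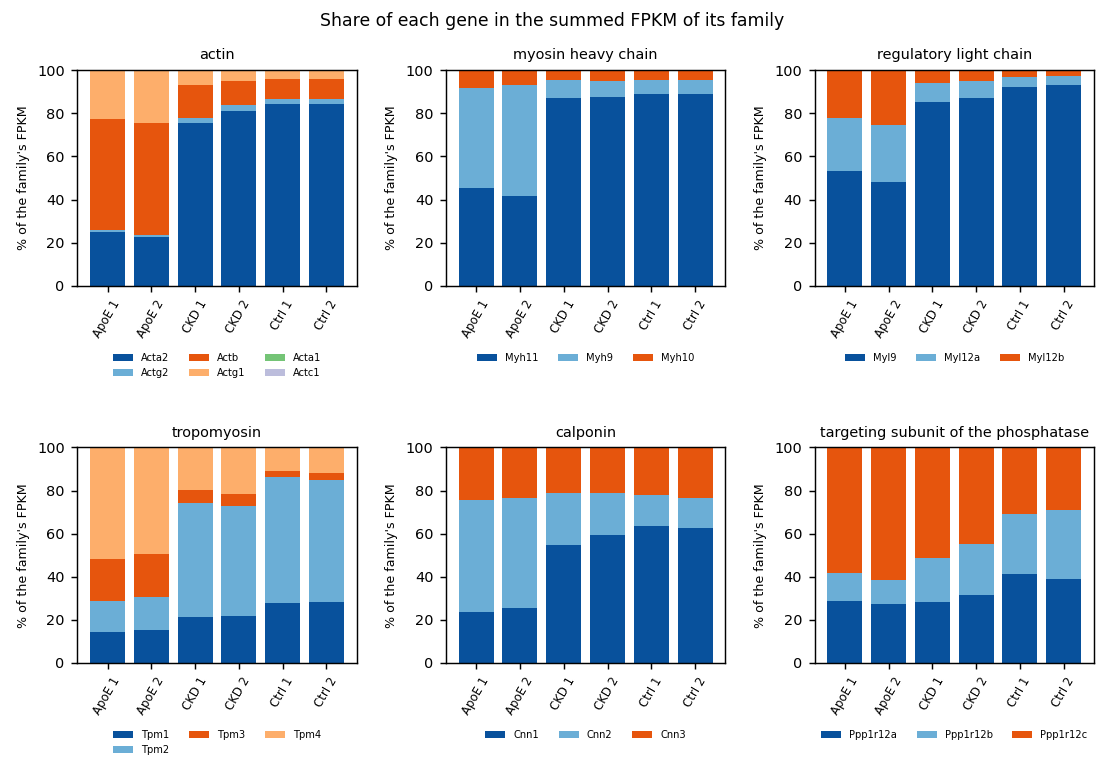
Share of each gene in the summed FPKM of its family, in percent, as stacked bars for each library (ApoE 1 and 2, CKD 1 and 2, Ctrl 1 and 2, left to right) and 6 families. The smooth muscle genes (Acta2, Myh11, Myl9, Tpm2 and Cnn1) take a smaller part in both ApoE libraries than in the CKD and Ctrl libraries.

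Other members of the same gene families (47 listed, 38 tested) moved in both directions. In ApoE against Ctrl 19 fell and 6 rose, where 24.3% of all genes were called lower and 19.8% higher, and the median was -0.66. The genes that rose were Actb (0.68), Actg1 (0.74), Cfl1 (1.34), Tpm3 (1.22), Ppp1r14b (1.26) and Myl12b (0.54), namely the cytoplasmic actins, cofilin, a tropomyosin, a phosphatase inhibitor and a non-muscle light chain. Of these 6, Cfl1, Tpm3 and Ppp1r14b were called in every alternative, and only these 3 rose with the replicate block or without ApoE 1, ApoE 2, Ctrl 1 or Ctrl 2. Actb and Myl12b were also not called without a filter or with libraries scaled to their FPKM without mitochondrial genes and the top 50 genes. Actb and Actg1 have processed copies in the genome, which the authors' counting could treat in ways not known here. Csrp2, a LIM protein of smooth muscle, stood at 58.1 and 49.6 FPKM in the ApoE libraries, 624 and 884 FPKM in the CKD libraries and 832 and 878 FPKM in the Ctrl libraries. It fell by -3.97 (SE 0.23, adjusted p = 0.000238). The kinases Mylk4 (-4.64) and Mylk2 (-4.18) and caveolin 3, Cav3 (-3.03), fell as well, and Vim, vimentin, fell by -1.11. In ApoE against CKD 16 of the 38 fell and 6 rose, where 21.2% of all genes were called lower and 18.5% higher. The 6 came to 3 without ApoE 1 and without ApoE 2. Flnc, filamin C, changed in ApoE against CKD by -2.22. None of the 38 was called by limma in CKD against Ctrl, with 17 at an unadjusted p below 0.05, where 30.0% of all genes were, and the median was -0.32.

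Partners of these proteins (52 listed, 49 tested) moved mostly one way. In ApoE against Ctrl 41 fell and none was called higher by limma, where 24.3% of all genes were called lower and 19.8% higher. At an unadjusted p below 0.05 in either direction stood 42 of the 49, against 53.6% of all genes. The median was -1.60. The most abundant were Hspb1, a small heat shock protein (-3.40 (SE 0.26, adjusted p = 0.000451)), Fhl1, a LIM protein (-2.63 (SE 0.24, adjusted p = 0.000761)), the integrin beta 1 chain Itgb1 (-1.39 (SE 0.31, adjusted p = 0.0154)) and the alpha 5 integrin Itga5 (-2.02 (SE 0.17, adjusted p = 0.000643)). Hspb7 (-4.25), Jph2, junctophilin 2 (-3.91), Sgca, alpha-sarcoglycan (-3.69), and Fbxl22 (-3.61) changed most among those of at least 10 FPKM on average. In ApoE against CKD 37 of the 49 fell and none rose, where 21.2% of all genes were called lower and 18.5% higher, with a median of -1.14.

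Between CKD and Ctrl 4 partners were called, and Itga5 was the 1 called higher. Itga5, a fibronectin receptor chain, stood at 57.8 and 49.6 FPKM in the ApoE libraries, 425 and 398 FPKM in the CKD libraries and 238 and 205 FPKM in the Ctrl libraries. It rose in CKD against Ctrl (0.90 (SE 0.17, adjusted p = 0.0461)), where 2.23% of all genes were called higher. The call on Itga5 did not hold without ApoE 1, ApoE 2, CKD 1, Ctrl 1 or Ctrl 2 (adjusted p = 0.0853 to 0.249). Itga8 (-1.29 (SE 0.34, adjusted p = 0.0758)) and the other integrins of the list, Itgb1, Itga1, Itga7 and Itga9, were not called. Mcam, a cell adhesion molecule, fell (-1.11 (SE 0.15, adjusted p = 0.028)), and so did Palld, palladin, an actin-bundling protein (-1.42 (SE 0.27, adjusted p = 0.0443)), and Dtna, which completes the 3 partners called lower. The median of the 49 partners was -0.50. As for the 34 genes, these calls were lost with a single library left out, except without CKD 2, when 36 of the relatives and partners together were called in place of 4 and 17.1% of all genes in that fit in place of 5.44%.

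Markers of other cells moved with these groups, and their part in the results was not tested. The 8 macrophage markers summed to 7168 and 10850.0 FPKM in the ApoE libraries, 1065 and 1679 FPKM in the CKD libraries and 537 and 489 FPKM in the Ctrl libraries. All 8 rose in ApoE against Ctrl, among them Cd68 and Lyz2, and 3 rose in CKD against Ctrl. Of all genes tested, 19.8% were called higher in ApoE against Ctrl and 2.23% in CKD against Ctrl. The 8 white adipocyte markers summed to 2479 and 2596 FPKM in ApoE, 6275 and 2104 FPKM in CKD and 320.0 and 772 FPKM in Ctrl, and 7 rose in ApoE against Ctrl. CKD 1, the CKD library with the lower values for 31 of the 34 genes, held the highest adipocyte sum of all 6 libraries. The 6 endothelial markers summed to 258 and 258 FPKM in ApoE, 156 and 259 FPKM in CKD and 329 and 276 FPKM in Ctrl, a sum that Pecam1 dominated. In ApoE against Ctrl Pecam1 fell (-0.93), while Cdh5 (0.94), Kdr (1.62) and Emcn (1.49) rose and Tie1 and Vwf were not called. The 4 pericyte markers summed to 38.7 and 18.6 FPKM in ApoE, 66.1 and 90.2 FPKM in CKD and 71.7 and 68.0 FPKM in Ctrl. Of these Abcc9 fell in ApoE against Ctrl (-1.79), Higd1b, at under 2 FPKM, rose (0.94), and Kcnj8 and Cox4i2 were not called. Cardiomyocytes also express Des, Synm, Ldb3 and Nexn. Their markers summed to 9.34 and 9.48 FPKM in ApoE, 27.4 and 31.6 FPKM in CKD and 8.40 and 8.46 FPKM in Ctrl. Nppa was at 0 in the ApoE and CKD libraries. The sums hide opposite changes in ApoE against Ctrl, where Myl7 (1.64) and Myh6 (0.91) rose, Ryr2 (-1.89) and Tnnt2 (-0.62) fell and Tnni3 was not called. Mesothelial markers summed to 8.12 and 5.30 FPKM in ApoE, 51.9 and 41.5 FPKM in CKD and 0.456 and 1.03 FPKM in Ctrl. All 4 rose in CKD against Ctrl, and 3 in ApoE against Ctrl. The 6 fibroblast markers summed to 924 and 627 FPKM in ApoE, 832 and 1260.0 FPKM in CKD and 1633 and 1431 FPKM in Ctrl. In ApoE against Ctrl Col1a1 (-1.58), Pi16 (-1.78) and Dpt (-1.27) fell. Lum (0.50), Pdgfra (-0.72) and Dcn (-0.85) were not called. Mitochondrial genes took 9.67% and 10.89% of reads in the ApoE libraries, 9.99% and 5.7% in the CKD libraries and 3.13% and 4.19% in the Ctrl libraries.

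**Figure D5:**
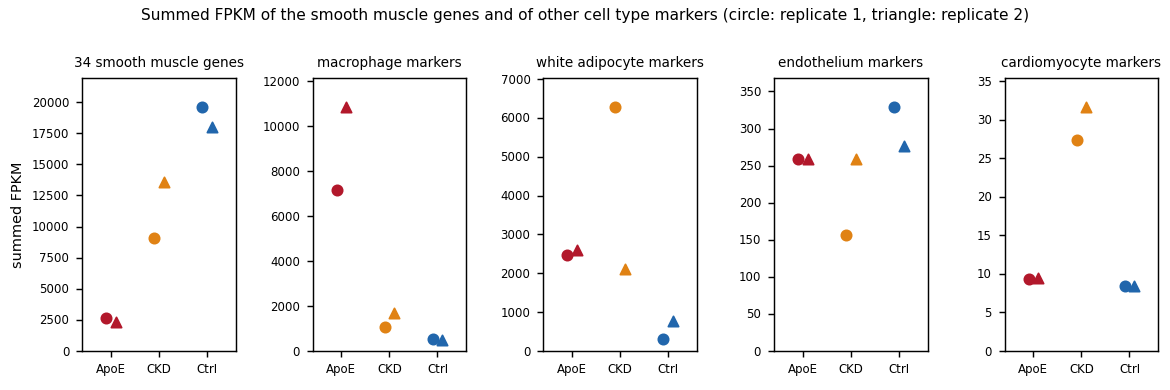
Summed FPKM of the 34 genes (left) and of 4 sets of markers of other cell types in each library, by group (ApoE, CKD, Ctrl); circles are replicate 1 and triangles replicate 2, and the axes start at 0. The sum of the 34 genes is 2634 and 2303 in ApoE, 9091 and 13619 in CKD and 19591 and 18029 in Ctrl, while the macrophage sum is highest in ApoE.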

How the data were processed

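The deposited values, 1 per gene and library, were taken as FPKM on the evidence of the numbers alone, because neither headers nor labels state a unit. In 5 of the 6 files identifiers and values were stacked in 1 column. Build GRCm38 and the tools TopHat2, HISAT2 2.1.0 and Bowtie2 2.2.3 are named with no role, per the submitters' processing notes. Which tool counted the reads, and with which annotation, is not given in the sources used here. Ensembl identifiers were matched to GENCODE M21 symbols for 27695 of 27815 genes. Multiplying by exon length gave whole reads, within 0.05, for 88.6% to 89.7% of values. Libraries of one group differed by a chi-square of 17.9 to 68.5 times its degrees of freedom, so none was a copy.

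Values were analysed as log2(FPKM + 1), which understates the change of low genes, for 14074 genes that reached 1 FPKM in 2 or more libraries. All 6 libraries entered 1 limma fit (limma 3.58.1, R 4.3.3) of 3 group means, with a variance trend and robust spread, adjusted by Benjamini-Hochberg over all genes tested. The fit was checked on simulated data. The 34 genes, the lists of relatives, partners and markers, and the tests were chosen with earlier results of these data known, and no list gets a test of its own. All 34 genes are named; of the relatives and partners, the 4 called genes with the largest change (mean of at least 10 FPKM) in each comparison and the 4 most abundant, and the genes counted beside them that rose or were called in CKD, chosen after their values were seen. Alternatives were another pseudocount, no filter, 2 other scalings, only the 4 libraries of a comparison, no trend, a replicate block, each library left out, and, for the relative changes, the summed FPKM of the 34 genes in place of their median. Reference sequences are from RefSeq (GRCm38.p6).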

Additional observations from a re-analysis of the deposited data

How the results depend on the processing

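With both libraries of each compared group kept, 33 to 34 of the 34 genes fell in ApoE against Ctrl. Of all genes, 10.6% to 27.8% were called lower there. In ApoE against CKD 28 to 32 of the 34 genes fell, where 8.94% to 23.2% of all genes were called lower. Over every alternative, also those with a library left out, the medians were -3.05 to -2.69 in ApoE against Ctrl and -2.45 to -2.09 in ApoE against CKD. With each library left out in turn, 31 of the 33 calls in ApoE against Ctrl and 25 of the 31 in ApoE against CKD were kept in all 6 fits. Without Ctrl 1, Synm (0.0521) and Cav1 (0.0695) missed the threshold in ApoE against Ctrl. In ApoE against CKD, Actn1, Cald1, Cav1, Rgs5, Synm and Vcl missed it without ApoE 2, and Pgm5, Tln1 and Cavin1 passed it without CKD 1. No direction was reversed.

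Counts by direction moved further. Against the median of the 34 genes, the 2 genes lower in ApoE against Ctrl came to 1 to 7 and the 4 lower in ApoE against CKD to 3 to 7. The relatives and partners called higher, 6 in each of these comparisons, came to 3 to 7.

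In CKD against Ctrl the median ran from -0.92 without CKD 2 to -0.52 without CKD 1. The 5 genes called lower came to 2 with a pseudocount of 0.1, to 0 without a filter, to 0 with only the 4 libraries of the comparison, and to 0 to 24 with a library left out. The 4 relatives and partners called came to 2, 0 and 0 in the same settings, and to 0 to 36 with a library left out. The 2 genes called against the median came to 1 with a pseudocount of 0.1, to 1 without trend and robust spread, to 0 against the summed FPKM, to 1 with only the 4 libraries of the comparison, and to 0 to 6 with a library left out. The cause was not tested. A left-out library leaves 1 sample in its group, which is assumed to vary like the others.

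The groups share replicate numbers, but nothing in the labels says that a number pairs libraries. Differences between replicates 1 and 2 correlated across genes by -0.097 between ApoE and CKD, 0.046 between ApoE and Ctrl and -0.233 between CKD and Ctrl. Other differences between the libraries of a group could hide a pairing, so these correlations do not decide whether the numbers pair libraries. With the replicate block, 33 of the 34 genes were called lower in ApoE against Ctrl, 29 in ApoE against CKD and 0 in CKD against Ctrl. Of all genes, 20.2%, 17.1% and 0.142% were called lower, in the same order. In CKD against Ctrl the relatives and partners called and the calls against the median also came to 0. Apart from Tagln, no gene of the 34 had fewer than 198 reads in any library.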
